A study of Arabidopsis thaliana with 12 samples.

Results

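Histone H3 genes were followed in roots of Arabidopsis thaliana through 3 array probes, each annotated to 1 gene: AT1G09200, AT1G13370 and AT5G65360. They were found by these locus names among the 692 single-gene probes, which name 691 genes, of 3439 probes in all. The study compared roots of the aap3 mutant with wild-type (WT) roots, both in the ecotype Wassilevskija. AAP3, for which the mutant is named, is a permease that carries amino acids across the plasma membrane. The study holds 6 aap3 and 6 WT samples of total RNA, numbered 1 to 6 in each group. The mutant allele, the plants' age and growth conditions, and whether a sample pools plants are not stated in the labels. Nothing there says that the replicates are separate plants, so p-values cover the spread among these 12 samples alone and that spread may be technical. AAP3 itself, and 11 root and 11 leaf marker genes that would check the tissue, had no single-gene probe and are not analysed here. In whole roots, a change in the share of a cell type and a change in RNA per cell cannot be told apart.

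Histone H3 is a core protein of the nucleosome, the unit of DNA packing in chromatin. Plants, like animals, carry several kinds of it. H3.1 is placed on DNA mainly during replication by the chaperone CAF-1, so its transcripts are known to be abundant in dividing cells such as those of the root tip. H3.3 can be placed at any time and is known for its presence on transcribed genes. A separate H3, CENH3, marks centromeres. AT1G09200 and AT5G65360 are H3.1 genes in the RefSeq gene table, while AT1G13370 is a further H3 gene without such a label there.

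Both AT1G09200 and AT1G13370 gave a readable signal in all 12 samples and were brighter in aap3 than in WT in all 6 same-numbered pairs, while AT5G65360 gave no readable signal in either group. These directions are a description, since the genes were selected on this very contrast, chosen by the calls of AT1G09200 and AT1G13370 as higher in aap3 in a fit that pairs same-numbered samples. AT5G65360 was added as an H3 gene at the floor. No test of these 3 probes between aap3 and WT is therefore given as support.

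The H3.1 gene AT1G09200 varied most between samples. Its deposited intensity, a linear value of unstated unit, was 0.421, 0.431, 0.435, 0.429, 0.614 and 0.302 in aap3 replicates 1 to 6, against 0.387, 0.301, 0.283, 0.280, 0.446 and 0.155 in WT replicates 1 to 6. Replicate 5 was the highest and replicate 6 the lowest in both groups, and the groups overlapped. Of the aap3 samples, 1 lay above every WT sample, and 4 WT samples lay below every aap3 sample. The mean was 0.439 ± 0.1001 in aap3 and 0.309 ± 0.1001 in WT (SD, n = 6 each), so the group means differed by little more than 1 SD. The ratio of aap3 to WT within a pair was 1.09 in pair 1, 1.43 in pair 2, 1.54 in pair 3, 1.53 in pair 4, 1.38 in pair 5 and 1.94 in pair 6. The mutant sample was thus higher each time, with a nearly even pair 1 and the widest gap in pair 6, where the WT sample is the dimmest of all 12.

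AT1G13370 varied less. Its deposited intensity was 0.506, 0.532, 0.450, 0.455, 0.542 and 0.554 in aap3 replicates 1 to 6, against 0.466, 0.442, 0.354, 0.426, 0.463 and 0.421 in WT replicates 1 to 6. Of the aap3 samples, 4 lay above every WT sample and the other two, replicates 3 and 4, lay within the WT range. The mean was 0.507 ± 0.045 in aap3 and 0.429 ± 0.041 in WT (SD, n = 6 each). The ratio of aap3 to WT within a pair lay between 1.07, in pair 4, and 1.31, in pair 6. The spread over all 12 samples was 12.3% of the mean for AT1G13370 and 31.3% for AT1G09200.

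AT5G65360, the second H3.1 gene with a probe of its own, was listed at exactly 0 in 11 samples. In aap3 replicate 6 it stood at 0.0012, far below the floor of 0.200 times the sample median, under which values were not told apart here. No fold can be given for it, and a value of 0 here does not show that the gene is silent. It is 1 of 48 single-gene probes at or under that floor in all 12 samples.

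**Figure D1:**
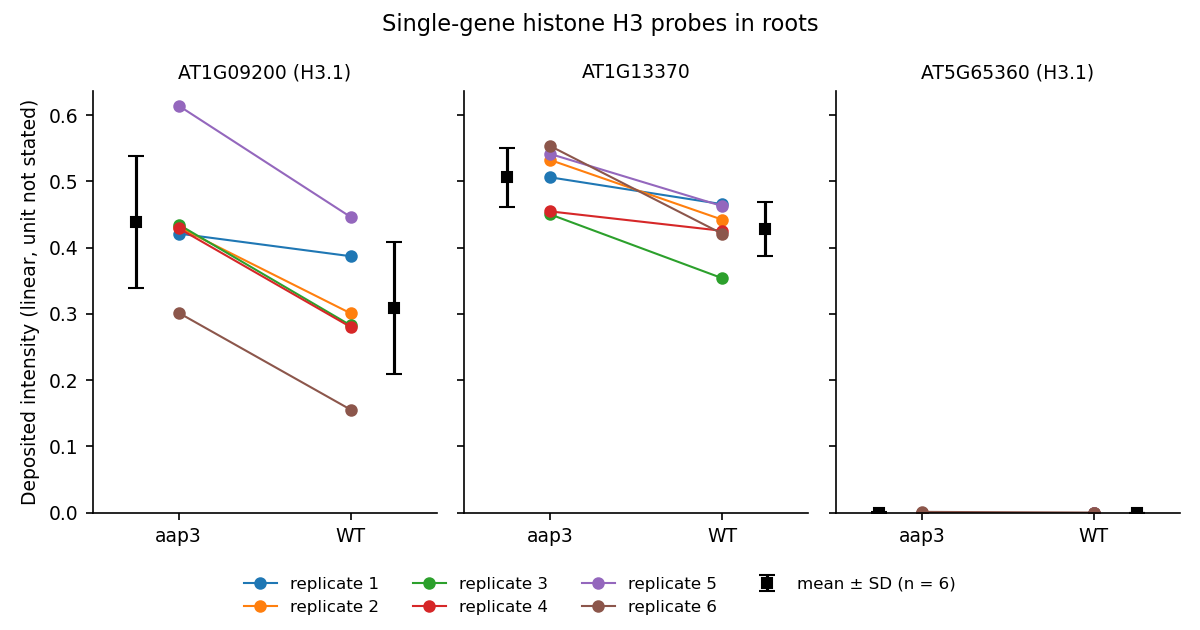
Deposited intensity (linear, unit not stated) of the 3 single-gene histone H3 probes, with a line joining the aap3 and WT sample of each replicate number and squares for the mean ± SD (n = 6). All lines of AT1G09200 and AT1G13370 run down from aap3 to WT, the AT1G09200 samples are the more widely spread, and AT5G65360 lies at 0 except for 0.0012 in aap3 replicate 6.

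The members differed in brightness, although the brightness of different probes does not rank their transcripts. The AT1G13370 probe was the brighter in 11 of 12 samples, the exception being aap3 replicate 5. Ranked among all 3439 probes of its sample, AT1G13370 had a median percentile of 45.5 (32.3 to 56.7) and AT1G09200 one of 40.3 (13.5 to 62.9). The percentile ranges of AT1G09200 and AT1G13370 overlapped, whereas AT5G65360 never passed percentile 4.68.

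For comparison across the whole table, intensities were divided by the sample median, floored, brought to log2 and quantile normalized. On this scale the difference of aap3 minus WT was 0.63 ± 0.25 for AT1G09200 and 0.31 ± 0.10 for AT1G13370 (limma SE). With the replicate number as a block the differences were the same, and the SEs were 0.11 and 0.04. The median difference over all 3439 probes was 0. A difference at least as high was found in 0.349% of all probes for AT1G09200 and in 6.37% for AT1G13370. An offset added before log2 in place of the floor, which compresses dim probes, gave 0.35 for AT1G09200 and 0.20 for AT1G13370.

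Without the block, limma called 0 of the 3 members, where 2.50% of all probes were called higher in aap3. At an unadjusted p under 0.05, 2 of the 3 members were higher, as were 294 of all 3439 probes. With the block it called 2, AT1G09200 and AT1G13370, where 8.55% of all probes were called higher. The count with the block was used to choose the genes. The counts without it come from the same contrast, so nothing is read from any of them. Likewise, 7.21% of all probes were brighter in aap3 in all 6 pairs on the deposited scale. In 1.51% of all probes every aap3 sample lay above every WT sample, which held for 0 of the 3 members.

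For both genes, samples of a number deviated together. For AT1G09200 the SD within groups was 0.46 on the log2 scale and that of the 6 pair differences 0.29, against medians of 0.21 and 0.17 over the 2859 probes above the floor in all samples. For AT1G13370 these SDs were 0.17 and 0.12. AT1G09200 is therefore among the more variable probes, as 94.0% of those 2859 had a smaller SD within groups, while 35.3% did for AT1G13370.

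Pair differences ran from 0.18 to 1.07 for AT1G09200 and from 0.19 to 0.45 for AT1G13370. Pair 1 resembled pair 2 over all probes, as pair 3 did pair 4 and pair 5 did pair 6 (correlations of 0.54 to 0.65, against 0.32 to 0.35 for the other 12 combinations), so these neighbours were also averaged. For AT1G09200 the log2 difference was 0.38 over replicates 1 and 2, 0.70 over 3 and 4, and 0.80 over 5 and 6. For AT1G13370 it was 0.26, 0.32 and 0.35 over the same replicates. All 3 averages were above 0 for both genes, which was fixed beforehand because every pair difference was above 0. The SD of the averages was 0.22 for AT1G09200 and 0.05 for AT1G13370. Neither gene was called with these averages, with or without the block. Among all probes, limma then called only 1 without and 0 with the block, so the lack of a call is not particular to these genes.

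Probes of near numbers had median differences close to 0. The median log2 difference of the 16 probes within 10 numbers of AT1G09200 was 0.02, and that of the 15 around AT1G13370 was 0.04.

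**Figure D2:**
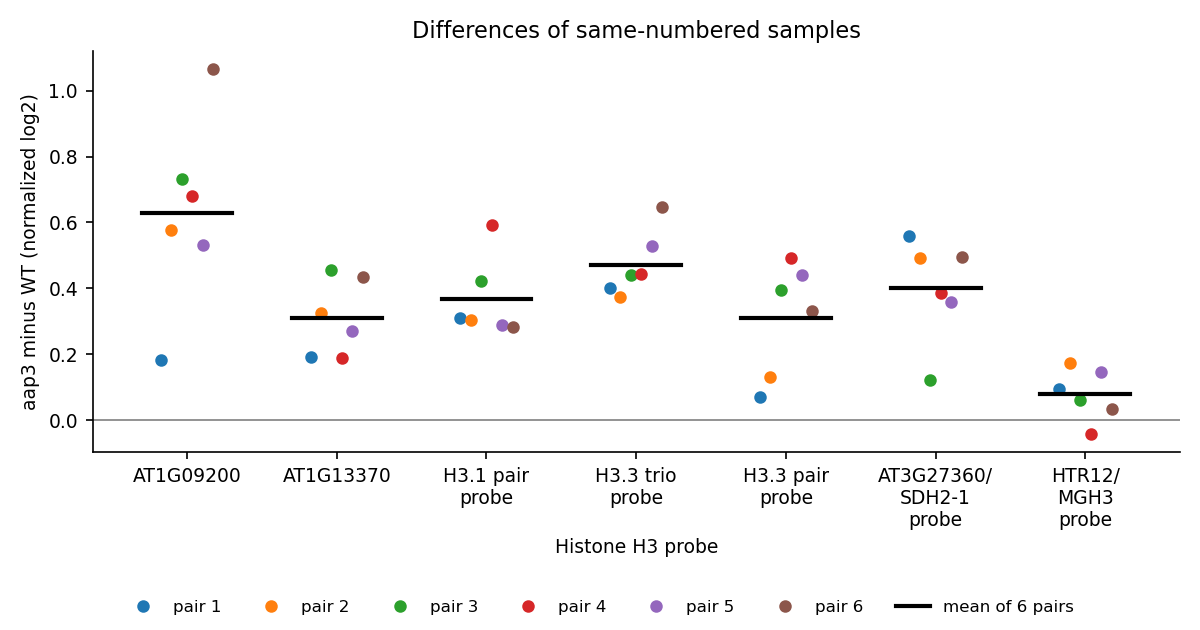
Difference of aap3 minus WT on the normalized log2 scale in each of the 6 same-numbered pairs (points) and their mean (bar), for the 2 readable single-gene histone H3 probes and 5 probes annotated to several genes. All points lie above 0 except pair 4 of the probe for HTR12 or MGH3, at -0.04.

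Another 5 probes are annotated to several genes with a histone H3 gene among them, and 4 of these name H3 genes only. They are not members and cannot be assigned to 1 gene. They played no part in choosing the members, but they were taken up after their values had been seen. All 5 had a positive difference, with a median of 0.37 on the log2 scale, where the median over all 3439 probes was 0. In limma 2 of the 5 were called higher in aap3 and 0 lower, and with the block 4 higher and 0 lower. The share of all probes called higher was 2.50% without and 8.55% with the block. With neighbouring replicate numbers averaged, limma called 0 of the 5 with or without the block. Over all 3439 probes it then called 0 with and 1 without the block, so this loss is not particular to the H3 probes. At an unadjusted p under 0.05 in limma stood 4 of the 5 with and 2 without the block. Of all 3439 probes, 755 with and 373 without the block did so.

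The H3.3 trio probe, annotated to the H3.3 genes AT4G40030, AT4G40040 and AT5G10980, rose in aap3. Its deposited intensity was 1.23, 1.42, 1.24, 1.15, 1.15 and 1.16 in aap3 replicates 1 to 6, against 0.975, 1.17, 1.002, 0.915, 0.832 and 0.778 in WT replicates 1 to 6. WT replicate 2 was the only WT sample inside the aap3 range. The log2 difference was 0.47 ± 0.09 (SE, limma adjusted p = 0.0111 by Benjamini-Hochberg over all probes), with aap3 higher in 6 of 6 pairs. The call held on leaving out any 1 sample (limma adjusted p up to 0.0289). It ended when neighbouring replicate numbers were averaged (limma adjusted p = 0.268, and 0.134 with the block).

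The H3.1 pair probe, annotated to the neighbouring H3.1 genes AT5G10390 and AT5G10400, also rose. Its deposited intensity was 0.948, 0.851, 0.899, 0.846, 0.806 and 0.716 in aap3 replicates 1 to 6, against 0.817, 0.735, 0.730, 0.610, 0.694 and 0.613 in WT replicates 1 to 6. Of the aap3 samples, 4 lay above every WT sample. The log2 difference was 0.37 ± 0.08 (limma adjusted p = 0.0306, and 0.0073 with the block), with aap3 higher in 6 of 6 pairs. The call without the block lay close to the threshold. It ended in 10 of 12 omissions of 1 sample, all but aap3 replicate 6 and WT replicate 1 (limma adjusted p up to 0.0656). It also ended with values not scaled between samples (0.27, limma adjusted p = 0.0823) and with neighbouring numbers averaged (limma adjusted p = 0.294). The call with the block held on leaving out any 1 pair (limma adjusted p up to 0.0274). With neighbouring numbers averaged, that call ended too (limma adjusted p = 0.146).

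The H3.3 pair probe, annotated to AT4G40030 and AT5G10980, shares its genes with the trio probe and was not called without the block. Its mean deposited intensity was 0.795 ± 0.158 in aap3 and 0.689 ± 0.148 in WT (SD, n = 6 each). The log2 difference was 0.31 ± 0.16 (limma adjusted p = 0.36, and 0.0285 with the block), and the 95% interval without the block ran from -0.04 to 0.66. The call with the block ended on leaving out pair 3, 4, 5 or 6 (limma adjusted p up to 0.0785) and with neighbouring numbers averaged (limma adjusted p = 0.221). The pair differences were 0.07 and 0.13 in pairs 1 and 2 and 0.33 to 0.49 in the others. On the deposited scale aap3 was higher in 5 of 6 pairs, with a ratio of 0.99 in pair 1.

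The probe annotated to the H3.1 gene AT3G27360 or to SDH2-1, a subunit of mitochondrial succinate dehydrogenase, had a mean intensity of 0.595 ± 0.128 in aap3 and 0.472 ± 0.091 in WT (SD, n = 6 each). Its log2 difference was 0.40 ± 0.18 (limma adjusted p = 0.267, and 0.0115 with the block). The call with the block ended with neighbouring numbers averaged (limma adjusted p = 0.148). Which of these genes it reads cannot be told apart.

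The probe annotated to HTR12, the centromeric CENH3, or to MGH3, an H3 gene known from male gametes, was the exception in size. Its mean intensity was 0.382 ± 0.039 in aap3 and 0.377 ± 0.040 in WT (SD, n = 6 each). The log2 difference was 0.08 ± 0.08, with a 95% interval from -0.09 to 0.25 (limma adjusted p = 0.724, and 0.142 with the block). On the deposited scale aap3 was higher in 3 of 6 pairs. Whether this difference is smaller than those of the other H3 probes was not tested.

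**Figure D3:**
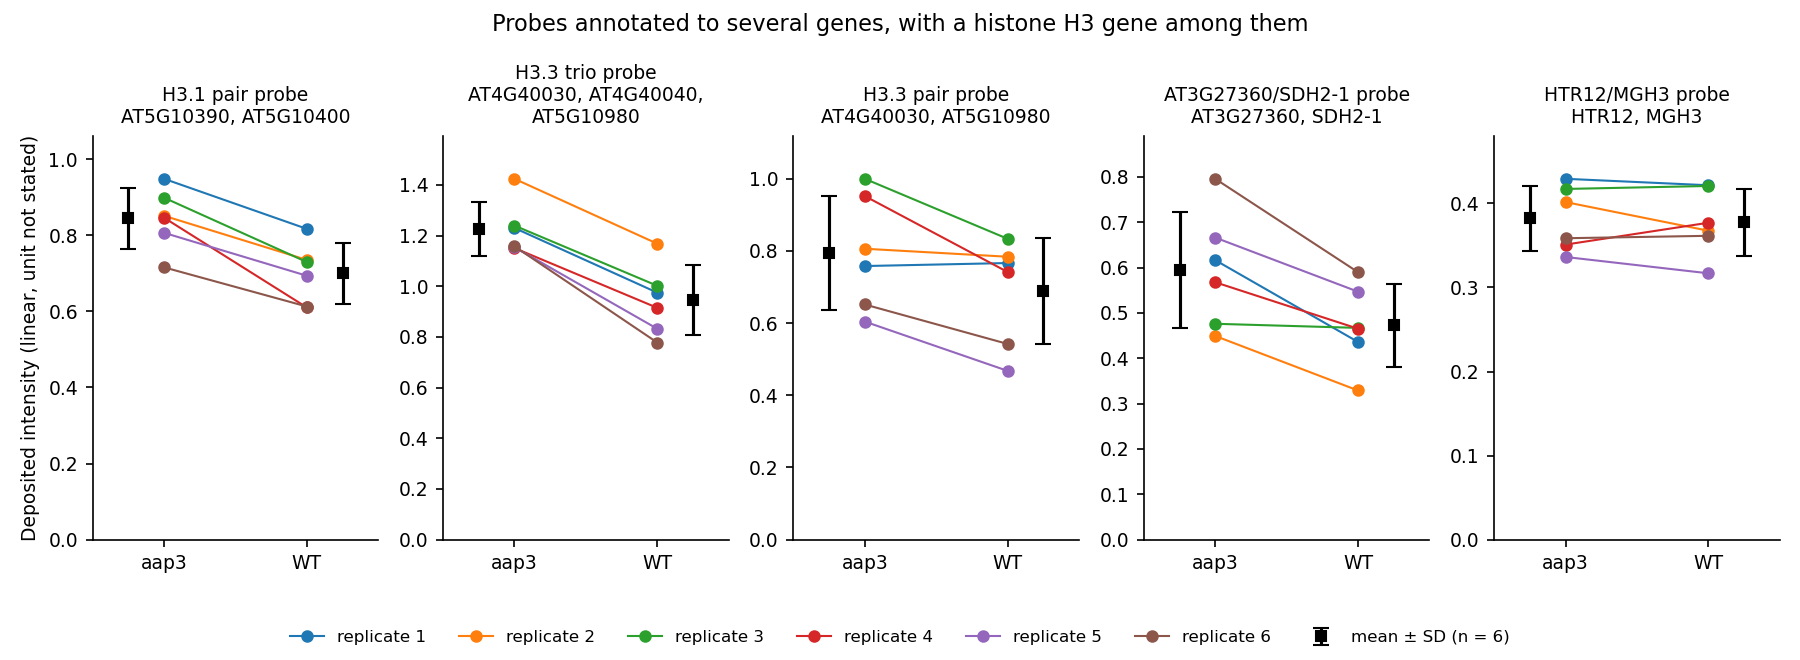
Deposited intensity (linear, unit not stated) of the 5 probes annotated to several genes with a histone H3 gene among them, drawn as for the single-gene probes, each panel with its own axis from 0. Every aap3 sample of the H3.3 trio probe and the H3.1 pair probe lies above the WT sample of its number, while the lines of the HTR12 or MGH3 probe are nearly flat.

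**Figure D4:**
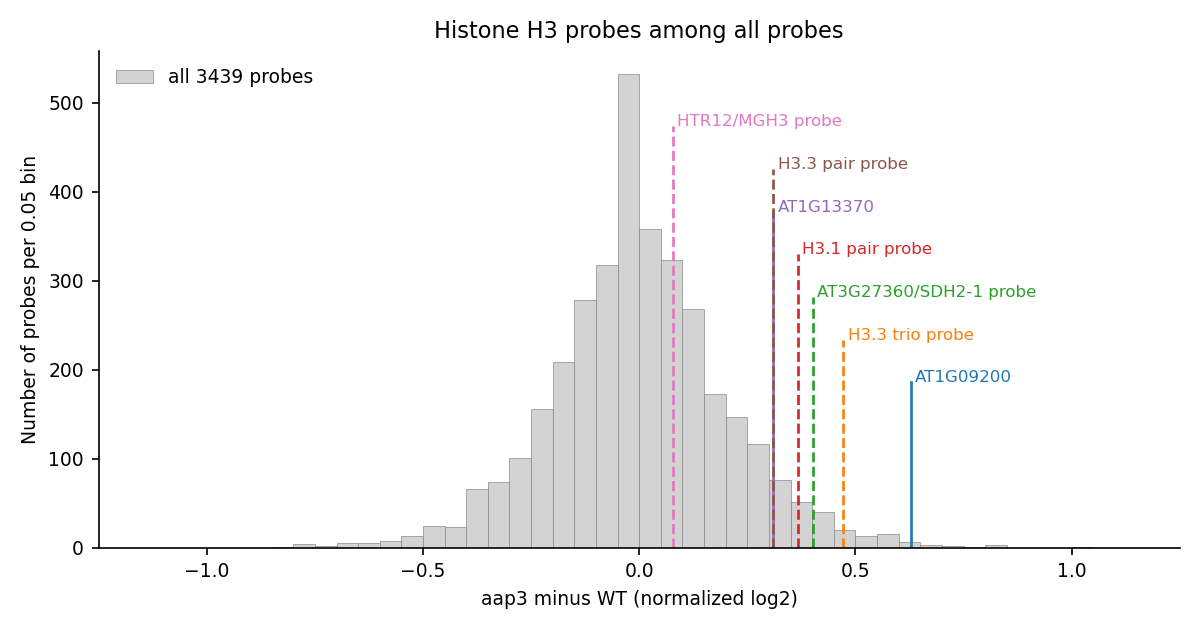
Number of probes by difference of aap3 minus WT (normalized log2, bins of 0.05) for all 3439 probes, with a line at each readable histone H3 probe (solid for single-gene probes, dashed for probes of several genes). The lines run from 0.08 for the HTR12 or MGH3 probe to 0.63 for AT1G09200, all right of the centre at 0.

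Histone H3 genes are close in sequence and the probe sequences were not used here, so how far one probe reads another gene's transcript was not tested. Over the 12 samples, the normalized values of AT1G09200 had a Pearson correlation of 0.75 with the H3.1 pair probe, 0.62 with the H3.3 trio probe and 0.26 with the H3.3 pair probe. It was 0.22 for AT1G09200 with the probe for AT3G27360 or SDH2-1, and 0.09 with that for HTR12 or MGH3. With AT1G13370 the correlation of AT1G09200 was 0.57. AT1G13370 had a correlation of 0.61 with the probe for AT3G27360 or SDH2-1 and 0.60 with the trio probe. It had 0.54 with the H3.1 pair probe, -0.08 with the H3.3 pair probe and 0.08 with the probe for HTR12 or MGH3. These are descriptions over 12 samples that share 6 replicate numbers, and they contain the difference between aap3 and WT.

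Among the 566 other single-gene probes above the floor in all samples, the profile of AT1G09200 over the 12 samples was most like those of AT4G07670 (Pearson r = 0.88), AT5G46390 (r = 0.88) and AT4G30150 (r = 0.85). The median r over the 566 was -0.04, and AT1G13370 came 29th. The profile of AT1G13370 was most like those of AT5G40070 (r = 0.92), AT1G44920 (r = 0.81) and AT1G62780 (r = 0.80), with a median of -0.03 and AT1G09200 in place 48. Over the 6 pair differences alone, r with AT1G13370 was 0.53 for AT5G40070, 0.73 for AT1G44920 and -0.35 for AT1G62780, so the last likeness turned sign. With AT1G09200 it was 0.88 for AT4G07670, 0.94 for AT5G46390 and 0.80 for AT4G30150. Over the 12 samples, the probes named were closer to each H3 gene than the H3 genes were to each other. They were picked as the closest of 566, so nothing is read from this. The likeness of the H3 genes to each other over the pair differences alone is not given here. AT4G07670, the closest to AT1G09200, averaged 0.486 ± 0.034 in aap3 and 0.456 ± 0.058 in WT (SD, n = 6 each). AT5G40070, the closest to AT1G13370, averaged 0.498 ± 0.046 in aap3 and 0.463 ± 0.021 in WT (SD, n = 6 each).

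Of the 14 histone H3 genes listed for this report, 3 had a single-gene probe. None of the 8 H4, 13 H2A, 11 H2B and 3 linker histone genes listed had one, nor did the 7 H3 chaperone genes, the 6 H3 methyltransferase genes or the 14 genes of S phase and the cell cycle. Whether other products of dividing cells moved with the H3 genes is therefore not analysed here.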

How the data were processed

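The authors deposited linear intensities, 1 for each probe in each of 12 samples. How they were made (array, dyes, background, normalization) is not given in the sources used here. Sample medians lay between 0.476 and 0.536, and in every same-numbered pair the WT median was the higher. Gene names are those of GEO's platform annotation, matched by gene ID to the RefSeq table of TAIR10.1 (690 of 692 single-gene probes matched a locus). Intensities were divided by the sample median, floored at percentile 5 of positive values (9.95% of values lay at or below it), brought to log2 and quantile normalized. All 3439 probes were fitted with limma 3.58.1 in R 4.3.3 without covariates, with Benjamini-Hochberg adjustment and a threshold of 0.05. The fit was tested on simulated data in which same-numbered samples varied together but neighbouring numbers did not. That test therefore cannot show how the fit behaves with the likeness of neighbouring numbers seen here. Same-numbered samples deviated together (correlations across probes of 0.73 to 0.75 in 6 pairs), so the numbers were taken to pair them, from the data and not the labels, and blocking on that number is an alternative. The other alternatives concern scaling, floor, probe filters, averaged neighbouring numbers, probes at near numbers, and omitted samples. Genes named are the 3 members, measured members of the lists, and for each readable member the 3 single-gene probes of highest Pearson r. The probes of several genes were added after their values were seen. Members and lists were chosen with earlier results of these data known. The number of samples limits the precision.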

Additional observations from a re-analysis of the deposited data

Results flagged for a closer look

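Among 14 checks of the readable histone H3 probes for a sample far from the others of its group, 0 stood out, where chance gives about 1 in 20.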

How the results depend on the processing

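The log2 differences of AT1G09200 and AT1G13370 stayed above 0 under all settings run. For omissions of 1 pair and averaged neighbouring numbers this was fixed beforehand, because every pair difference was above 0. The sign is no support in the other settings either, since both genes were chosen as higher in aap3. The differences passed the threshold with the replicate number as a fixed or a random block (0.63 and 0.31). They also did so after probes at near numbers were subtracted with the block (0.62 and 0.28). Both genes were chosen by their call in a fit that pairs same-numbered samples. Calls in these fits and in the omissions of 1 pair are therefore no support. On leaving out 1 sample the differences ran from 0.44 to 0.76 and from 0.24 to 0.35 and were called in 0 of 12 omissions. On leaving out 1 pair with the replicate block they ran from 0.54 to 0.72 (called in 4 of 6, limma adjusted p up to 0.0513 when pair 3 or 4 was left out) and from 0.28 to 0.33 (called in 6 of 6). AT5G65360 was above the floor in 0 samples and above exact 0 in 1, so no difference is given for it. With values not scaled between samples, the log2 differences of all readable H3 probes were smaller than in the main fit. They were then 0.55 for AT1G09200, 0.24 for AT1G13370 and 0.02 for the HTR12 or MGH3 probe. The 172 probes called in all became 587 with the replicate block, 713 with it as a random block, 281 without scaling between samples and 878 after subtraction of near probes. With neighbouring numbers averaged, which leaves 3 values per group, limma called 1 probe without the block and 0 with the replicate block. At an unadjusted p under 0.05 there were 373 and 755. Omissions of 1 sample gave 128 to 188 calls, and omissions of 1 pair with the block 349 to 439. For all other changes the cause was not tested. Signal over background was not used here, so what dimness limits beyond the floor is not known.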
